A study of Caenorhabditis elegans with 2 samples.

Results

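ZTF-22, a zinc finger protein of the nematode Caenorhabditis elegans, was mapped across the genome by ChIP-seq, and 249 of the 30000 candidate regions of the pooled data lay at genes for small nucleolar RNAs (snoRNAs). A region was taken when its summit fell within 500 bp of a snoRNA gene of the Ensembl annotation of WBcel235 and not within 500 bp of a tRNA gene, which left out 3 regions. The 249 regions lay nearest to 206 of the 346 annotated snoRNA genes, 39 of which were nearest to 2 or more regions. For 11 regions, 2 or more snoRNA genes lay in the window and the nearest was used.

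The animals were young adults of strain OP676, 68 hours old, grown from L1 larvae that had been starved after bleaching, and both sexes were pooled as whole animals. They carried the unc-119 allele tm4063 and the transgene wgIs676, which holds unc-119(+) and ztf-22 with a C-terminal TY1, EGFP and 3xFLAG tag, so the precipitated protein is the transgene's, in 1 line. Chromatin was sheared by sonication and precipitated with an antibody against GFP, while the entry for the antibody itself reads ztf-22. There were 2 biological replicates and 1 group, so the data hold no contrast of conditions, and tissues cannot be told apart. The deposited files list 30000 candidate regions for each replicate and for the pooled reads, and an optimal list of 952 peaks. Those 952 were the pooled regions with the highest signal, at 110 or above, against a median of 48.4 over the pooled list. Signal is the authors' own peak caller value, rank 1 is the strongest region of a list, and read depths are not known from these files. None of the 249 regions lay within 25 kb of ztf-22 or unc-119, where transgene reads may add to the signal.

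snoRNAs guide the chemical modification of ribosomal and spliceosomal RNA in the nucleolus. Those with boxes C and D direct ribose methylation by fibrillarin, and those with boxes H and ACA direct pseudouridylation by dyskerin. Many are cut out of the introns of a host gene and need no promoter of their own, while others are transcribed from their own promoters. tRNA genes, which RNA polymerase III transcribes, carry internal promoter elements called the A box and the B box, and snRNA genes carry a proximal sequence element upstream of the start.

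Stretches just upstream of snoRNA genes are shown first because the strongest regions lay there. Each runs from 100 bp upstream of the annotated snoRNA start to 10 bp within the gene, 5′ to 3′ on the snoRNA strand, in WBcel235 (ce11). Capitals mark matches to 3 patterns that were written down after such stretches had been read: A-box-like (TGGC, any 2 bases, A, any 2 bases, GG), B-box-like (GTTCNANNC, where N is any base) and snRNA-promoter-like (CCCG, any 5 bases, TGTC). The first set holds 4 genes with an A-box-like or B-box-like match and an optimal peak, T03F7.8 (chrV:11314158-11314267, plus strand), C41C4.11 (chrII:8107261-8107370, minus strand), Y43F8C.22 (chrV:19643178-19643287, minus strand) and W03C9.9 (chrII:11960798-11960907, plus strand).
T03F7.8: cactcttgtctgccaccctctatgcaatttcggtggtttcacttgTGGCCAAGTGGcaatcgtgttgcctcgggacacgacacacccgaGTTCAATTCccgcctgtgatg
C41C4.11: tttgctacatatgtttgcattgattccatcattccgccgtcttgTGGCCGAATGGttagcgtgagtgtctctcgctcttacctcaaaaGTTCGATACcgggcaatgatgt
Y43F8C.22: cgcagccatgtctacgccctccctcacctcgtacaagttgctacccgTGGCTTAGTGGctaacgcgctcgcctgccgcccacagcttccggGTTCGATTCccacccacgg
W03C9.9: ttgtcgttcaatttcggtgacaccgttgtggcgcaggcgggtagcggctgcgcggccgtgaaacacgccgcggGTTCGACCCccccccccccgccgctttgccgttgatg

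The second set holds 3 genes with a snRNA-promoter-like match and an optimal peak, ZK994.7 (chrV:8500479-8500588, plus strand), Y53F4B.47 (chrII:15025884-15025993, minus strand) and W04D2.7 (chrV:12491180-12491289, plus strand). ZK994.7 had the strongest region of all at snoRNA genes.
ZK994.7: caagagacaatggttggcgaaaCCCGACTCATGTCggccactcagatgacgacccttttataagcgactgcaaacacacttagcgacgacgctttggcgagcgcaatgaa
Y53F4B.47: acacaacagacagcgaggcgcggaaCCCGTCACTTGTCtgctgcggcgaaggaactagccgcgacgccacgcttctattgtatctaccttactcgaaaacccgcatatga
W04D2.7: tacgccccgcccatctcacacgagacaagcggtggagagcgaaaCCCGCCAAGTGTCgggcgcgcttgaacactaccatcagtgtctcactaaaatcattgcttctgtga

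The last set holds Y53F4B.48 (chrII:15166019-15166128, minus strand), whose optimal peak ranked 136 with no match to the 3 patterns, and F11A10.9 (chrIV:12086609-12086718, plus strand), which has a B-box-like match and a region that ranked 2329, outside the optimal list.
Y53F4B.48: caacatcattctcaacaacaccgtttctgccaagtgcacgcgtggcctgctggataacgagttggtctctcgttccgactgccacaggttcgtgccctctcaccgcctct
F11A10.9: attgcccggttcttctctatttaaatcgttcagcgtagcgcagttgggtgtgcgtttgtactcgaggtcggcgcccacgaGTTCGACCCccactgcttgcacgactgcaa

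The regions at snoRNA genes were strong for the list they came from. The optimal list held 58 of the 249 (23.3%, exact 95% Clopper-Pearson interval 18.2 to 29.0%), against 3.17% of all pooled candidate regions and 3.00% of the other 29751. Their median rank was 5977, against 15055 for the other pooled regions. Intervals cover the counting of regions only, not the spread between animals. By the same rule the lists of the single replicates held 242 regions in replicate 1 and 267 in replicate 2. Among them, 47 (19.4%) in replicate 1 and 60 (22.5%) in replicate 2 stood in that replicate's strongest 952, which is 3.17% of each replicate's list. The 58 optimal peaks lay nearest to 57 snoRNA genes, since F25H2.15 had 2 of them, and 8 of the 58 were among the 100 strongest pooled regions. At the edge of the window, just inside 500 bp lay the regions at K11H12.12 (495 bp, rank 3018) and K02F3.15 (492 bp, rank 2072), and just outside lay those at C56G2.20 (503 bp, rank 15584) and W06H8.17 (506 bp, rank 22709).

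Rank went with the place of the summit on the snoRNA gene. Of the 73 summits 1 to 100 bp upstream of a snoRNA start, 39 were optimal peaks (53.4%, interval 41.4 to 65.2%) and the median rank was 845. Elsewhere in the window 19 of 176 were optimal (10.8%, 6.63 to 16.3%) and the median rank was 8625.5. The intervals did not overlap, but they treat each region as independent. Some regions elsewhere overlapped a stronger region at the same gene, as at W03C9.9 (rank 3156 beside 77) and T19B4.8 (rank 3673 beside 180). The fall was seen on both sides: 3 of 19 summits were optimal at over 100 and up to 250 bp upstream, 5 of 36 at over 250 and up to 500 bp upstream, 6 of 43 inside the gene and 5 of 78 downstream of its end. Within the 100 bp, 25 of 44 summits at 1 to 50 bp were optimal, with a median rank of 626, and 14 of 29 at 51 to 100 bp, with a median rank of 1160. The 58 optimal peaks had a median offset of -34.5 bp from the start (quartiles -67 and -10.5), where negative is upstream, and 47 lay upstream. The 191 weaker regions had a median offset of +33 bp (quartiles -99.5 and +260), and 81 lay upstream.

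**Figure D1:**
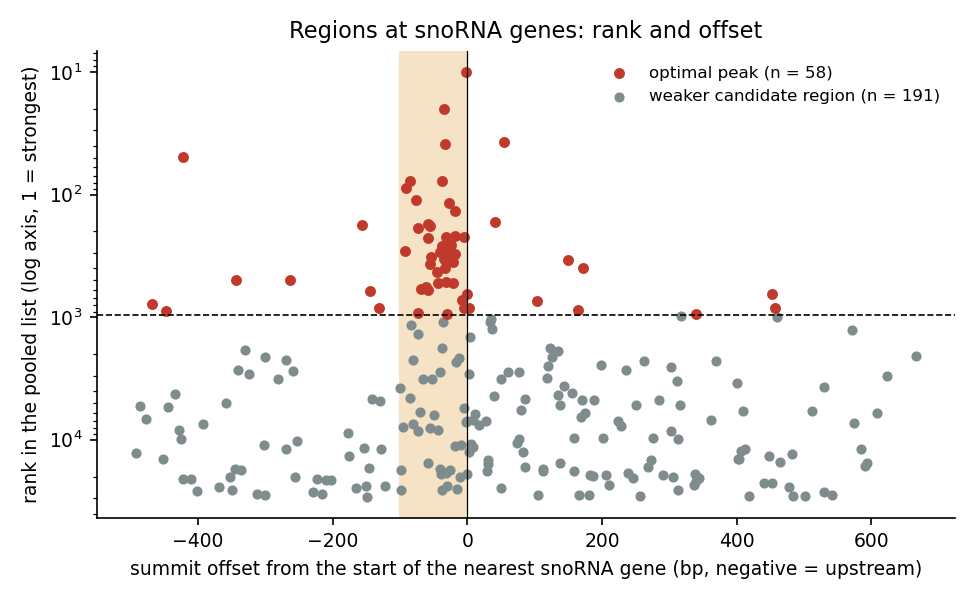
Rank in the pooled list (log axis, strongest at the top) of the 249 regions against the offset of the summit from the start of the nearest snoRNA gene in bp along the snoRNA strand. Red points are the 58 optimal peaks and grey points the 191 weaker regions, the dashed line is rank 952 and the shaded band is 1 to 100 bp upstream, which holds 39 of the 58.

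In each replicate, too, the share was highest at 1 to 100 bp upstream. In replicate 1, 31 of 66 summits at 1 to 100 bp upstream were among the strongest 952 (47.0%), against 2 of 92 downstream (2.17%). In replicate 2 the counts were 34 of 69 (49.3%) and 9 of 97 (9.28%). The replicate median ranks at 1 to 100 bp upstream were 982.5 and 956. At starts of protein-coding genes the share was lower: of 1141 other pooled regions 1 to 100 bp upstream of a protein-coding transcript start, with no tRNA gene within 500 bp, 77 were optimal (6.75%, 5.36 to 8.36%), with a median rank of 12274. Most of the 73 summits lay away from protein-coding promoters. A promoter window covered the 500 bp before and the first 200 bp after the transcript start of a protein-coding gene. Outside these windows 28 of 56 summits at 1 to 100 bp upstream of a snoRNA were optimal (50%, 36.3 to 63.7%), and inside them 11 of 17 were.

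Counted over genes, 59 of 346 snoRNA genes had an optimal summit within 500 bp (17.1%), against 2.79% of all 46890 annotated nuclear genes, 13.6% of tRNA genes and 9.30% of snRNA genes. This count does not leave out regions near tRNA genes. By the strongest 952 of each replicate the shares within 500 bp were 13.9% of snoRNA and 16.7% of tRNA genes in replicate 1, and 17.6% and 9.97% in replicate 2, so snoRNA genes did not lead in replicate 1. With the summit required to lie 1 to 100 bp upstream, 40 of 346 snoRNA genes had one (11.6%, 8.39 to 15.4%), against 0.375% of all genes; a summit counts here for every gene it is near. Other classes were lower by this measure, at 5 of 129 snRNA genes (3.88%), 23 of 612 tRNA genes (3.76%), 2 of 261 miRNA genes (0.766%) and 66 of 19973 protein-coding genes (0.330%). Of the 15363 piRNA genes, which are also short, 1 had such a summit (0.00651%). Any candidate region, strong or weak, was near 214 snoRNA genes (61.8%) and near 64.4% of protein-coding genes. The same share was 79.7% of tRNA genes, 50.4% of snRNA genes and 47.9% of miRNA genes, and it counts regions over the whole gene body, which is longer in protein-coding genes. With any candidate summit required 1 to 100 bp upstream, the shares were 21.4% of snoRNA genes, 21.6% of tRNA genes, 14.0% of snRNA genes and 4.22% of protein-coding genes.

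**Figure D2:**
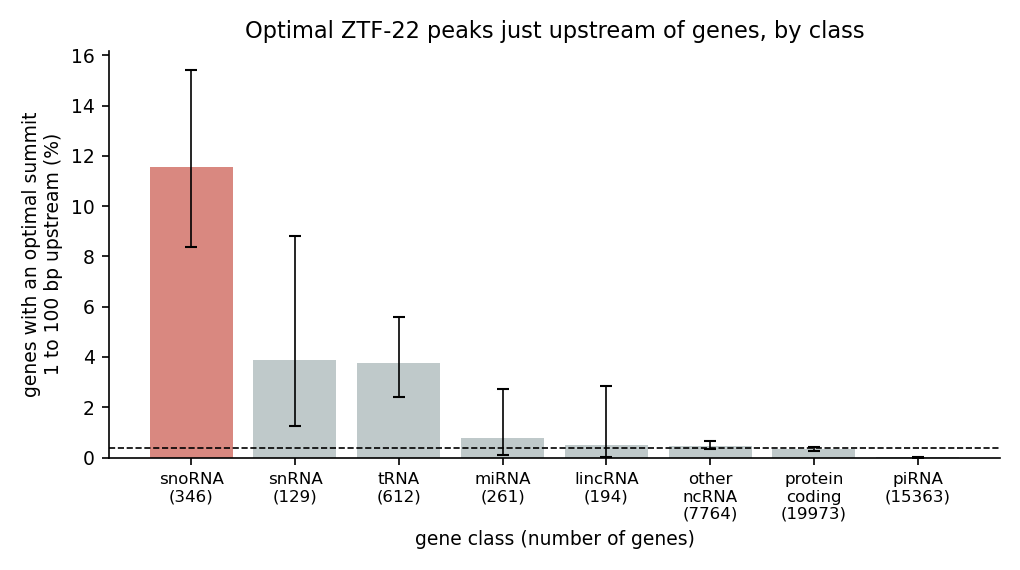
Share of the genes of each annotated class with an optimal summit 1 to 100 bp upstream of the start, in percent, with exact 95% intervals as error bars, the number of genes in brackets and the share over all genes (0.375%) as the dashed line. The bar for snoRNA genes stands at 11.6%, above snRNA genes at 3.88% and tRNA genes at 3.76%.

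The optimal share differed less by position in or outside a host gene than by offset. Of the 249 regions, 100 had a nearest snoRNA gene in an intron of a protein-coding gene on the same strand, the arrangement of a host, 16 in an intron on the opposite strand, 37 at a snoRNA overlapping an exon and 96 at an intergenic snoRNA. The optimal share was 17.0% (10.2 to 25.8%) in same-strand introns, 31.2% (11.0 to 58.7%) in opposite-strand introns, 21.6% (9.83 to 38.2%) with exon overlap and 29.2% (20.3 to 39.3%) at intergenic genes. These intervals overlap. At 1 to 100 bp upstream, 12 of 29 regions in same-strand introns were optimal (41.4%, 23.5 to 61.1%, median rank 2169), and 21 of 31 at intergenic genes (67.7%, 48.6 to 83.3%, median rank 370). Away from that place the shares were 5 of 71 (7.04%) in same-strand introns and 7 of 65 (10.8%) at intergenic genes. Replicate 1 had 11 of 21 and replicate 2 had 10 of 27 among the strongest at 1 to 100 bp upstream in same-strand introns, and 15 of 30 and 18 of 33 at intergenic genes, so the lead of the intergenic genes was not present in replicate 1. Other intronic regions were weaker: of 6611 other pooled regions with the summit in an intron and outside promoter windows, 139 were optimal (2.10%).

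**Figure D3:**
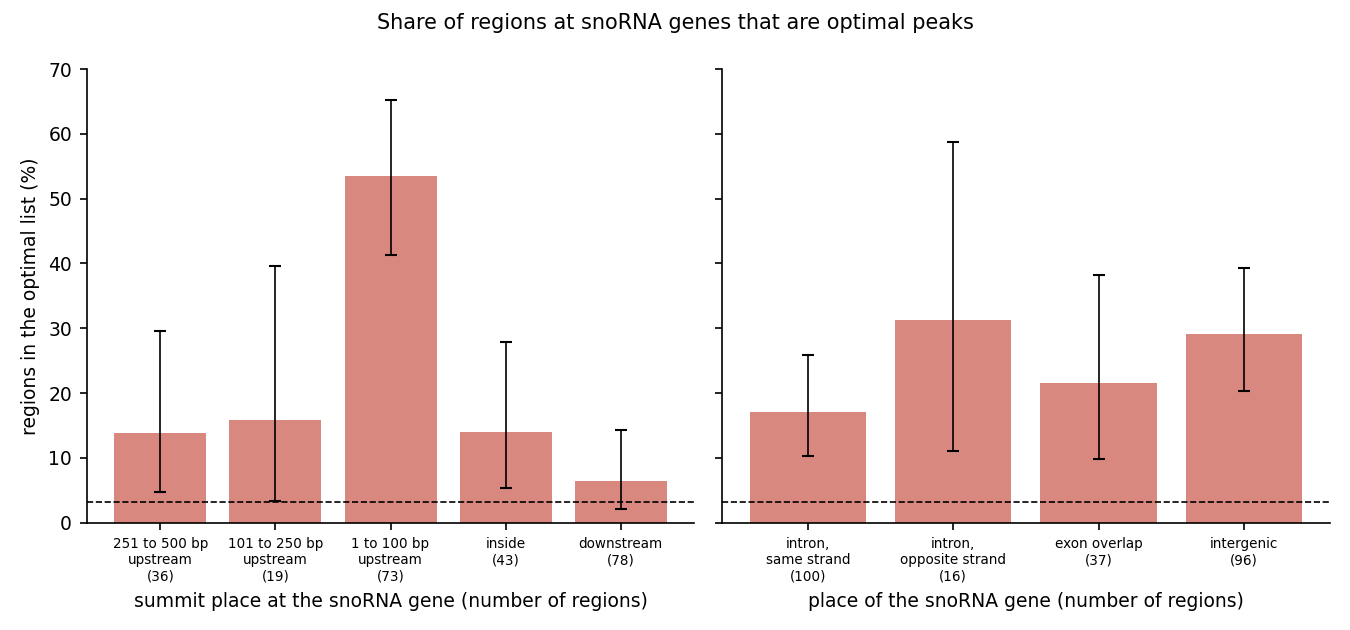
Share of regions at snoRNA genes that are optimal peaks, in percent, by the place of the summit (left) and by the place of the snoRNA gene (right), with exact 95% intervals as error bars, the number of regions in brackets and the share of all pooled regions (3.17%) as the dashed line. The bar at 1 to 100 bp upstream stands at 53.4% and the others at the left stand at 15.8% or below.

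The strongest region of all lay in an intron of pxn-1, which encodes a peroxidasin of the extracellular matrix. Its summit (chromosome V, 8500577) was 2 bp upstream of the snoRNA gene ZK994.7, and the signal was 367 in the pooled list, 95.2 in replicate 1 and 273 in replicate 2, at ranks 10, 19 and 10. Signals are on the scale of each list, whose medians were 19.2 in replicate 1 and 34.5 in replicate 2, so ranks are compared between replicates. Next was T03F7.8 (chromosome V, summit 11314223, offset -35), in an intron of cutl-18 on the opposite strand, with signals of 317 pooled, 78.8 and 246, at ranks 20, 44 and 15. Both were in the top 50 of every list, and these 2 regions were the only ones of the 249 narrower or wider than the usual 390 bp.

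By the nearest gene, C51F7.4 and C04A2.16 were strong exceptions to the upstream offset. The summit at C51F7.4 (chromosome V, 12303654) lay 55 bp inside the gene, which overlaps an exon of frm-7, at rank 37 (58 and 38 in replicates 1 and 2). A second snoRNA gene lay in the window of this region. With the nearest gene chosen by its start, this summit lay 1 to 100 bp upstream of the second gene. The optimal share at that place was then 54.05%. C04A2.16 lies in an intron of egl-27, a regulator of transcription related to the metastasis-associated proteins of mammals, and its summit (chromosome II, 6842818) was 422 bp upstream, at rank 49 (180 and 43). That summit was also 414 bp downstream of an egl-27 transcript start. ZK484.9, in an intron of the transporter gene haf-9 on the opposite strand, had its summit 41 bp inside (rank 169; signals 62.4 in replicate 1 and 131 in replicate 2), and M7.15, an intergenic gene, had it 156 bp upstream (rank 176; 174 and 306).

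The other 16 of the 20 strongest regions, ZK994.7 and T03F7.8 among them, had summits 1 to 100 bp upstream. W03C9.9 (pooled signal 221, offset -85, ranks 77, 49 and 102 in the pooled list, replicate 1 and replicate 2) and C41C4.11 (signal 221, offset -38, ranks 78, 119 and 105) were intergenic, as were Y23H5B.10 (rank 39; 43 and 48), F59C6.15 (89; 218 and 77), ZK265.10 (111; 136 and 177) and T19B4.8 (180; 73 and 338). Y53F4B.48 (136; 68 and 256) was intergenic and in the promoter window of gst-27, a glutathione S-transferase gene, and D2021.6 (175; 466 and 155) in that of sdha-1, a subunit of succinate dehydrogenase. F17C11.24 (188; 675 and 139) and T06C12.16 (224; 70 and 448) were intergenic too. T02E1.9 (117; 95 and 135) and W01C9.6 (216; 260 and 265) overlapped exons of spe-12, which acts in sperm activation, and of the globin gene glb-27. F55A11.10 in F55A11.6 (222; 267 and 205) and C27H6.5 in unc-41, which encodes a stonin of synapses (228; 443 and 192), were intronic on the same strand. Promoter windows also held the summits at C41C4.11 (windows of C41C4.9 and chst-1), T02E1.9 (T02E1.2) and F55A11.10 (F55A11.11 and the host F55A11.6). All of the 20 stood among the strongest 952 of both replicates.

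The hosts of strong intronic regions were of mixed function. Same-strand hosts numbered 77, and 17 of them held an optimal peak. The 12 optimal peaks 1 to 100 bp upstream of an intronic snoRNA lay at a median of 1390 bp downstream of the host's transcript start (range -345 to 7068). Promoter windows held 4 of the 12, at cng-3 that of wrt-3 and not of the host. Without promoter windows 8 of 22 such regions were optimal (36.4%, 17.2 to 59.3%). Beside pxn-1, F55A11.6 and unc-41, their hosts were Y43F8C.7 (snoRNA Y43F8C.22, rank 258; 455 and 268), madf-11 (C05D2.15, 262; 102 and 399), the ion channel gene cng-3 (F38E11.14, 286; 269 and 295) and cfim-2, a subunit of the mRNA cleavage machinery (D1046.6, 291; 454 and 333). The others were unc-70, beta-spectrin (K11C4.6, 314; 226 and 488), let-607, a bZIP transcription factor (F48A9.6, 513; no match in replicate 1, 594), pcyt-2.1 (Y37E3.20, 725; 255 and 1624), the innexin gene inx-11 (W04D2.7, 845; 9406 and 676) and Y38F2AR.12 (Y38F2AR.14, 937; 603 and 1844).

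Ribosomal protein genes are common hosts of snoRNAs, and their regions were placed differently. By symbol, cytosolic ribosomal protein genes hosted 18 of the regions, with a median rank of 5814.5 and a median offset of +254.5 bp, and 11 of the 18 lay in a promoter window. It was the host's own window at F54E7.10 in rps-12, Y24D9A.9 in rpl-7A, F28D1.13 in rps-23 and a region in rpl-24.1. Except at F28D1.13, the summit also lay in the window of a second gene, ska-3, set-21 and rps-10 in that order. For the rest of the 11 the window was that of another gene, such as trpp-11 or suf-1. Only 2 of the 18 had a summit 1 to 100 bp upstream of the snoRNA, at F28D1.13 in rps-23 (rank 17711) and F54E7.11 in rps-12 (rank 20272), neither of them optimal. The 2 optimal peaks were farther upstream: F54E7.10 in rps-12 (offset -263, rank 494; 499 and 622), 183 bp upstream of the host's start, and Y24D9A.9 in rpl-7A (offset -344, rank 496; 428 and 682), 62 bp upstream of the host's start. In introns of hosts whose symbols name neither a ribosomal protein nor a translation factor, 15 of 79 regions were optimal (19.0%). A ribosomal protein gene with another kind of symbol would be counted among these hosts. At 1 to 100 bp upstream 12 of 27 of their regions were optimal (44.4%, 25.5 to 64.7%, median rank 1774). With 2 regions at that place in ribosomal protein genes, no comparison of shares is made. Translation factor genes hosted 3 regions, none optimal, at eef-1G (ranks 2281 and 20809) and iff-2 (19677).

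The hosts with the most regions held no optimal peak. The 5 hosts with 3 regions each were rpl-6, cdc-48.1, which encodes a chaperone ATPase of protein degradation, rpl-24.1, ubxn-3, a cofactor of CDC-48, and Y37E3.8. Their best ranks were 5166, 5210, 6041, 11132 and 15277, and none held an optimal peak, where 3.17% of all pooled regions were optimal. With so few regions no comparison of shares is made. Of the hosts with 2 regions, rps-12 and rol-3 each held 1 optimal peak. Of the genes for the snoRNA-bound proteins, fib-1 (fibrillarin, best rank 1789) and dkc-1 (dyskerin, 2181) each had 1 candidate region in a promoter window, neither optimal. Of 19865 protein-coding gene names, 5660 had a candidate summit there and 382 an optimal one (1.92%), so 2 of 8 is near the background. For nol-56, nol-58, snu-13, garr-1, Y48A6B.3 and nola-3 no candidate region lay there. nol-56 was itself the host of 2 regions at snoRNA genes, of which the stronger ranked 9753. The weakest region at a snoRNA gene was that at C26G2.11, with a signal of 36.3 at rank 29109.

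Matched by summit within 100 bp, 51 of the 58 optimal peaks at snoRNA genes were found in both replicates (87.9%), about the same share as 804 of the 894 other optimal peaks (89.9%). Of all regions at snoRNA genes, 126 of 249 (50.6%) were in both replicate lists, 164 were in replicate 1, 204 in replicate 2 and 7 in neither. Of the other pooled regions 30.7% were in both. Across the 126, Spearman's rho between the ranks was 0.670, and across the 9129 other pooled regions in both it was 0.357; the points share 2 libraries, whose reads also make up the pooled list. Of the 39 optimal peaks at 1 to 100 bp upstream, 37 were in both and 28 were among the strongest 952 of both. Of the 19 optimal peaks elsewhere, 14 were in both and 7 among the strongest of both. All 58 had a match in replicate 2, and 7 had none within 100 bp in replicate 1: T26A8.6, B0334.12, F48A9.6, C02F5.15, C16D9.11, F39B2.14 and C17H12.36. With summits matched within 200 bp, 56 of the 58 were in replicate 1. At C16D9.11 a second, overlapping region (pooled rank 3766) had rank 295 in replicate 1, so a missing match is not a missing signal there.

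The optimal peaks that differed most between replicates 1 and 2 were those at W04D2.7 (ranks 9406 and 676), F32E10.10 (7997 and 541), F58D5.12 (398 and 7638), T15H9.8 (6189 and 450) and W01H2.11 (6280 and 844). In 4 of the 5 the region was stronger in replicate 2. F32E10.10 and W04D2.7 had the summit 61 and 5 bp upstream, and the other 3 lay outside the 100 bp.

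**Figure D4:**
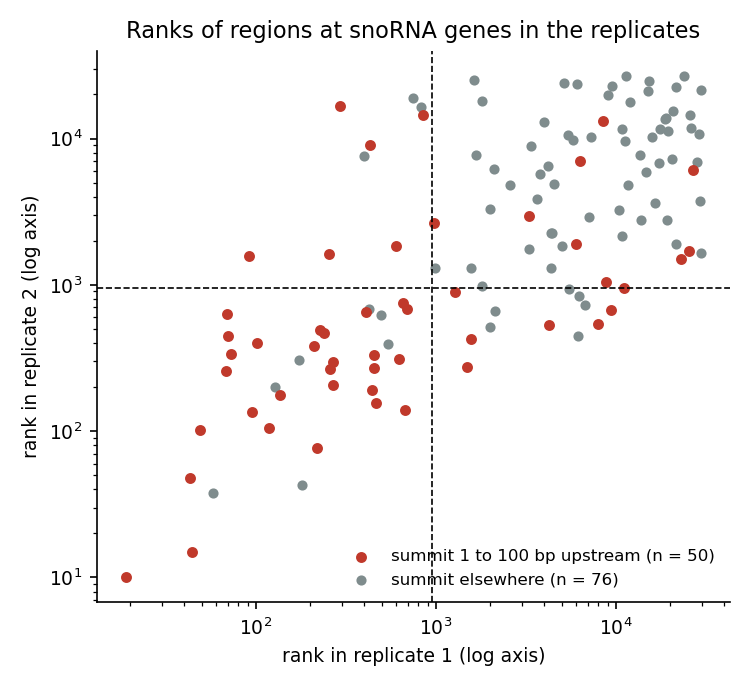
Rank in replicate 1 (horizontal) against rank in replicate 2 (vertical), both on log axes, of the 126 regions at snoRNA genes found in both replicate lists. Red points are the 50 with a summit 1 to 100 bp upstream and grey points the other 76, the dashed lines mark rank 952, and 35 points lie among the strongest of both, 28 of them red.

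Part of the upstream stretches held letters of the 3 patterns. The stretches searched took in the 120 bp upstream and the first 10 bp of the gene, on the snoRNA strand. Of 39 snoRNA genes nearest to an optimal summit 1 to 100 bp upstream, 24 matched at least 1 of the 3 patterns (61.5%). So did 13 of 34 with a weaker summit there (38.2%) and 32 of the other 273 snoRNA genes (11.7%). On the opposite strand the counts were 1 of 39, 1 of 34 and 5 of 273. The patterns were written down after the stretches had been read, so these counts are a description of the same sequences and no support for the patterns.

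The A-box-like letters were in 10 of the 39, 5 of the 34 and 6 of the 273, in 0.0951% of the same stretches of protein-coding genes, and in the bodies of 135 of 612 tRNA genes (22.1%). The B-box-like letters GTTCNANNC were in 15 of the 39, 6 of the 34 and 17 of the 273, in 1.85% of protein-coding stretches, in the stretches of 14 of 129 snRNA genes (10.9%, against 11.0% of all snoRNA genes) and in the bodies of 587 of 612 tRNA genes (95.9%). The snRNA-promoter-like letters were in 6 of the 39, 5 of the 34 and 13 of the 273, in 0.0951% of protein-coding stretches and in the stretches of 29 of 129 snRNA genes (22.5%). In stretches of the same length around the summits, on either strand, the 58 optimal peaks held the 3 patterns in 19.0%, 29.3% and 8.62%, in that order, and all pooled regions in 1.63%, 5.74% and 0.583%.

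At the genes with an optimal summit 1 to 100 bp upstream, the first base of the A-box-like match lay between -66 and -50 (median -55), that of the B-box-like match between -27 and -5 (median -12) and that of the snRNA-promoter-like match between -78 and -56 (median -67). Over all snoRNA genes the medians were -56, -14 and -58 in that order, with wider ranges of -75 to -9, -70 to -5 and -78 to -52. T03F7.8, C41C4.11 and Y43F8C.22 hold both the A-box-like match, at -55, -56 and -53, and the B-box-like match, at -11, -12 and -9.

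**Figure D5:**
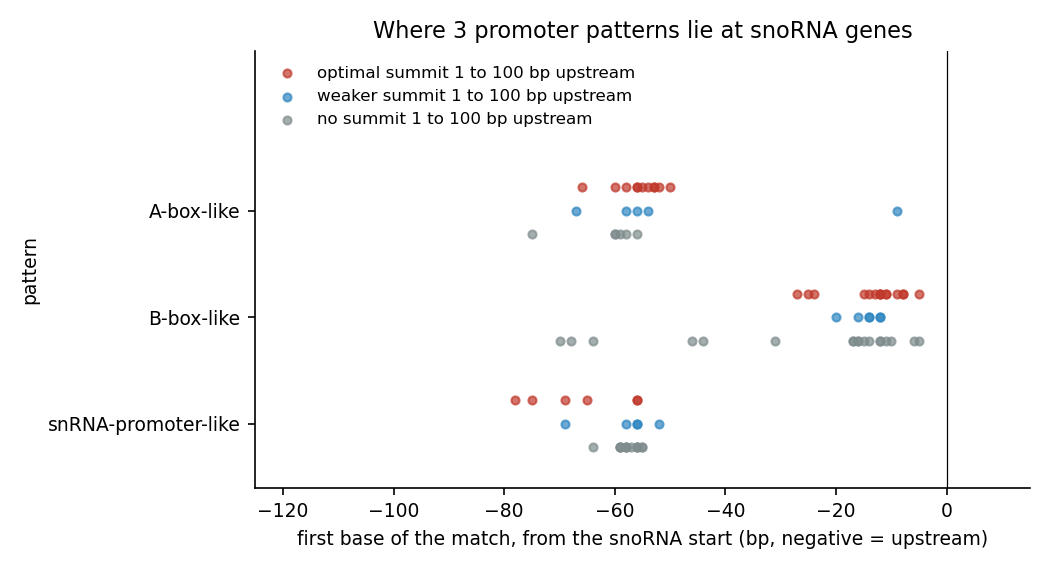
Position of the first base of each match, in bp from the snoRNA start, for the 3 patterns, on the snoRNA strand. Red points are snoRNA genes with an optimal summit 1 to 100 bp upstream, blue points those with a weaker summit there and grey points the others; over all genes the medians are -56 for A-box-like, -14 for B-box-like and -58 for snRNA-promoter-like matches, and single B-box-like matches lie as far upstream as -70.

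The values by pattern only describe the regions and, since the patterns were drawn from the stretches of strong regions, lend the patterns no support either. Among the 73 regions 1 to 100 bp upstream, 18 of 26 at genes with an A-box-like or B-box-like match were optimal (median rank 441), 6 of 11 with a snRNA-promoter-like match (845) and 15 of 36 with none (2203). At intergenic genes the A-box-like or B-box-like letters stood at 10 optimal peaks of 11 regions, and in same-strand introns at 4 of 8. None of the 19 snoRNA genes in genes with a ribosomal protein symbol matched any of the 3 patterns, against 69 of all 346 snoRNA genes (19.9%). Also, 0 of the 19 had an optimal summit 1 to 100 bp upstream, which by the exact interval allows a share of up to 17.6%. That range includes the 9.15% of all 142 snoRNA genes in same-strand introns, so no difference is read from the 0. Whether the 2 counts are linked was not tested.

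Of 6 motifs searched on both strands from 100 bp before to 100 bp after each summit, the tRNA B-box core GTTCGANNC was in 12 of the 58 optimal peaks (20.7%), 10 of the 191 weaker regions (5.24%) and 2.70% of all pooled regions. It was in 6.60% of the 894 other optimal peaks, some of which lie at tRNA genes. CTGCGTCTC, known from earlier results of these data, was in 2 of 58 (3.45%), against 9.51% of the other optimal peaks and 2.18% of all pooled regions. The E-box CACGTG was in 3 of 58 (5.17%), against 14.0% of the other optimal peaks, and the GATA motif CTTATCA in 1 of 58 (1.72%), against 18.3%. TGACTCA was in 1 of 58 (1.72%), against 2.35% of the other optimal peaks and 2.1% of all pooled regions. GAGAGAGA was in 3 of 58 (5.17%), against 8.72% of the other optimal peaks and 3.1% of all pooled regions. Over all pooled regions CACGTG was in 5.75% and CTTATCA in 5.5%, and the place of the optimal peaks at snoRNA genes relative to the whole list depended on the width for CACGTG. Within 50 bp of the summit CACGTG was in 5.17% of them, against 3.15% of all pooled regions, and within 200 bp in 10.3%, against 9.99%.

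The kind of snoRNA could be read from the letters for a minority. Box C and box D letters assigned 41 of the 346 genes to the C/D kind, with none of 346 stretches shifted by 1000 bp passing, and 70 to the H/ACA kind, with 21 of the shifted stretches passing, and the rest had no kind by these letters. Of the regions, 9 of 34 at C/D genes were optimal (26.5%, 12.9 to 44.4%), 9 of 62 at H/ACA genes (14.5%, 6.86 to 25.8%) and 40 of 153 at the rest (26.1%, 19.4 to 33.9%), and the intervals overlap.

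Some snoRNA genes are near copies of others, where the authors' read assignment could share or drop reads. Runs of 36 or more identical bases with a distant snoRNA gene were found at 7 of the optimal peaks, those at F59C6.15, F25H2.15 (both peaks), C53B7.8, T26A8.6, ZK643.9 and Y53F4B.47, and their ranks are uncertain for that reason. F59C6.15 and F25H2.15 share such a run with each other and with Y67A10A.14, F43A11.8 and T19C4.11. Regions at Y67A10A.14 and F43A11.8 ranked 19193 and 19198, against 89 and 335 for the strongest at F59C6.15 and F25H2.15. By chromosome, the optimal share ran from 6 of 41 on III (5.57 to 29.2%) to 13 of 34 on V (22.2 to 56.4%). These intervals overlap, and the shares of all pooled regions by chromosome are not given here. Each of the 6 chromosomes held optimal peaks.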

How the data were processed

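Region lists of 2 replicates, of their pooled reads and of the optimal peaks were used as the authors deposited them, on ce11 per the labels. The deposited signal and −log10 q value of each region are the authors' caller output; caller, aligner and thresholds: not given in the sources used here. Regions of a list were ranked by signal, and the highest q in the optimal list was 0.00822. The labels name the replicates as separate biological ones. Summits were placed on the Ensembl release 115 annotation with Python 3.11.15, pandas 2.3.3, numpy 2.4.6 and scipy 1.17.1, which gave the exact 95% intervals; replicate regions were matched by summits within 100 bp. Sequences came from the NCBI RefSeq genome of WBcel235. No region was left out for low values, and no test was made, since there is 1 group and regions are not replicates. Distance counting was tested on simulated data. Named were the 20 strongest regions, the 5 optimal peaks with the largest replicate difference, the weakest, those at the window's edge, hosts with 3 or more regions and the listed host and snoRNA-binding protein genes; other named genes were chosen after their values were seen. Members, lists and motifs were chosen with earlier results of these data known. Alternatives were other windows, each replicate alone, the stronger part of the optimal list, other match distances and promoter windows.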

Additional observations from a re-analysis of the deposited data

How the results depend on the processing

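Of 51 alternatives computed, 39 stayed within the spread of the value reported and 12 did not. The 39 include the other match distances, although the count of regions in both replicate lists depended on them. It was 86 of 249 (34.5%) within 50 bp and 167 (67.1%) within 200 bp, against the 126 reported. In replicate 1 alone the order of positions at 1 to 100 bp upstream turned, with 52.4% among the strongest in same-strand introns against 50% at intergenic genes. The optimal share of regions at snoRNA genes was 16.75% with a window of 1000 bp, and the median rank was 5166 with a window of 250 bp, 8403 with 1000 bp and 7286.5 outside protein-coding promoter windows, against the 5977 reported. Without replicate 1 and without replicate 2 the median rank in the list of the one left was 7495 and 7821.5. Counting only the 476 strongest optimal peaks, 1.59% of all pooled regions, gave an optimal share of 14.06% over all regions at snoRNA genes, 39.73% at 1 to 100 bp upstream, 3.409% elsewhere, 9% in same-strand introns and 18.75% at intergenic genes; this list is shorter by construction. With no mismatch allowed in box C, 11 genes were of the C/D kind, against 41. The count of regions 1 to 100 bp upstream outside promoter windows was added after seeing the data. No paired analysis was possible because there is 1 group and the results come from no test. The lists hold no read counts, so depth and its effect on weak regions are not known, and most snoRNA genes have no kind by letters.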
